A study of Mus musculus with 6 samples.

Results

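Sox2, Sox9 and Sox10 are 3 genes of the SOX family of transcription factors. They were chosen by gene symbol, as 3 of the 15016 genes in the deposited table, and all 3 had enough RNA to be tested among 11780 genes. The study grew organoids, 3-dimensional cultures, from mouse cochlear progenitor cells and compared 3 RNA-seq libraries from stiff gels with 3 from soft gels. Both groups were wild type inner ear cells and had the same media. The cells were first expanded with the growth factors IGF, bFGF and EGF and with CHIR99021, 616452, 2-phospho-L-ascorbic acid and valproic acid, an inhibitor of histone deacetylases. After expansion, both received a differentiation medium with CHIR99021, which inhibits GSK3 and so turns up Wnt signalling, and with LY411575, which inhibits gamma-secretase and so keeps Notch from being cleaved. The organoids were moved at that stage into hydrogels of either stiffness. Stiffness values, time in the gels and ages of the animals were not stated in the labels used here. Replicates carry numbers, but no label tells whether each is its own culture or animal, and the p-values reflect only how far these libraries differ, which may be technical.

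SOX proteins bind DNA through a domain called the HMG box and act together with partner factors that differ between cell types. In the developing inner ear, Sox2 marks the prosensory cells that give rise to hair cells and supporting cells, and it stays on in supporting cells. Sox9 and Sox10 are close relatives in SOX group E. Both are present early in the otic epithelium. Sox9 is also known as the main activator of cartilage genes, and Sox10 as a factor of neural crest derivatives such as Schwann cells and melanocytes, while it is also made in the supporting cells of the cochlea.

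Sox2 lies on chromosome 3 from 34650405 to 34652461 on the plus strand and has 1 exon (build GRCm38, the same as mm10; GENCODE release M21). Sox9 lies on chromosome 11 from 112782224 to 112787760 on the plus strand, with 3 exons. Sox10 lies on chromosome 15 from 79154908 to 79165240 on the minus strand, with 5 exons in the transcript used here. The stretch of coding sequence that the 3 genes share without a gap is 225 bases long and falls in the HMG box. It is shown because it is the part of the 3 transcripts where reads of one gene could most easily match another. Capitals mark the 147 bases (65.3%) that are identical in all 3 genes.
Sox2: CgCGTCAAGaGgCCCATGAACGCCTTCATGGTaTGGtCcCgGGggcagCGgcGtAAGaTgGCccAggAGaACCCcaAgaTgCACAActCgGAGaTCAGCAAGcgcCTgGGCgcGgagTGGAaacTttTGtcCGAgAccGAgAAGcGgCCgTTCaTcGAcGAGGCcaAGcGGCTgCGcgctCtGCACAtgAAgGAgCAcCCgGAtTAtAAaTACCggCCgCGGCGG
Sox9: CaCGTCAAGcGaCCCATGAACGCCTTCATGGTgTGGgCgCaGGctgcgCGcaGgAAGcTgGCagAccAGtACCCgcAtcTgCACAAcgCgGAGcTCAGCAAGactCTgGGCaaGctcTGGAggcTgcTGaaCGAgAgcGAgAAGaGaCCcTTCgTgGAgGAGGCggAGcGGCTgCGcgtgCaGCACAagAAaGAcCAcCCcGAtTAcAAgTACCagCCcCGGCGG
Sox10: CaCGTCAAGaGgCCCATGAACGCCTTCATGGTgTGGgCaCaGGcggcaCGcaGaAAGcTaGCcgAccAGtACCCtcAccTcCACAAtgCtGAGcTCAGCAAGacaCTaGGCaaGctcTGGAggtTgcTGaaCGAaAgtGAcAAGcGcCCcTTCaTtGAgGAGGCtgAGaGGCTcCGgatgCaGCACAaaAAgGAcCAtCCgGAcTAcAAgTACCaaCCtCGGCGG
In Sox2 the stretch is at chr3:34650539-34650763. In Sox9 and Sox10 an intron splits it, at chr11:112782894-112783015 and chr11:112783809-112783911 for Sox9, and at chr15:79163289-79163410 and chr15:79159301-79159403 for Sox10. Sox9 and Sox10 were identical at 84.4% of these bases, Sox2 and Sox9 at 73.3%, and Sox2 and Sox10 at 68.9%. The longest run of identical bases between any transcripts of Sox9 and Sox10 was 44 bases. For Sox2 the longest run with any other SOX gene was 38 bases, shared with Sox21. Because the sources used here give no read length, the share of reads that could have been split was not computed. Sox2 also lies inside the long noncoding gene Sox2ot on the same strand, and 0 bases of its exon fall in a Sox2ot exon. Sox2ot was not analysed here.

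Values are FPKM, a count divided by the gene's length and by the depth of its library, so that levels of different genes can be compared. Depth, rebuilt from the FPKM values, was 16108470 to 17825127 reads in stiff libraries and 17328469 to 17899391 reads in soft libraries. One soft library, replicate 1, lay apart from the rest. The stiff libraries were at 7.89 to 17.3 on the first principal component, which held 62.5% of the variance. Soft replicate 1 was at -1.94, and soft replicates 2 and 3 were at -16.1 and -18.9. Results are therefore also given without soft replicate 1.

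Sox2 was higher in stiff gels. It had 5.73, 4.58 and 4.78 FPKM in stiff replicates 1 to 3, against 2.39, 1.13 and 0.906 FPKM in soft replicates 1 to 3. Every stiff library was above every soft library, as in 15.5% of all genes tested. Soft replicate 1 was the highest soft library, at 2.34 times the mean of the other soft libraries. The mean was 5.03 ± 0.615 FPKM in stiff gels and 1.47 ± 0.797 FPKM in soft gels (SD, n = 3 each), a ratio of 3.41. The added 1 FPKM pulls the fold change of a low gene toward 0. On the log2(FPKM + 1) scale, the fold change of stiff minus soft was 1.33 ± 0.19 (SE; 95% interval 0.89 to 1.76; limma, adjusted p = 0.0104). Sox2 was the 1 gene of the 3 that was called, meaning an adjusted p under 0.05 over all genes tested. Of the 11780 genes, 5.81% were called, 3.13% higher and 2.68% lower. In the authors' deposited table its log2 fold change was 1.75 ± 0.26 (SE), with q = 6.03e-09, where 4.09% of the genes tested here are higher and 5.37% lower at q under 0.05.

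The reads behind Sox2 were few. There were 252, 194 and 190 reads in stiff replicates 1 to 3, against 102, 50 and 40 reads in soft replicates 1 to 3. The exact 95% Poisson intervals, which cover counting error only, reached down to 164 reads in the stiff libraries and up to 124 reads in the soft libraries. The gap between the groups was thus larger than counting error in each library. Soft replicate 1 differed from the other soft libraries by more than counting error as well, since its lower bound was 83.2 reads and the highest bound of the others was 65.9 reads. Without soft replicate 1 the log2 fold change of Sox2 was 1.58 ± 0.11 (SE; limma, adjusted p = 0.000138), and the ratio of mean FPKM was 4.94. The call was lost without stiff replicate 1 (limma, adjusted p = 0.0592) and without soft replicate 2 (adjusted p = 0.0554), while the fold change stayed at 1.24 in both.

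Sox9 was not called. It had 29.6, 25.5 and 23.7 FPKM in stiff replicates 1 to 3, against 27.5, 23.1 and 23.2 FPKM in soft replicates 1 to 3. The groups overlapped, and replicate 1 was the highest library of each group. Means were 26.3 ± 3.03 FPKM in stiff gels and 24.6 ± 2.51 FPKM in soft gels (SD, n = 3 each). The log2 fold change was 0.09 ± 0.10 (SE; limma, adjusted p = 0.663), with a 95% interval of -0.13 to 0.31, that is from 0.914 to 1.24 times soft gels on the FPKM + 1 scale. These values rest on 5587 reads over the stiff libraries and 5410 reads over the soft libraries.

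Sox10 was not called either. It had 95.5, 77.6 and 82.5 FPKM in stiff replicates 1 to 3, against 89.8, 80.1 and 63.4 FPKM in soft replicates 1 to 3. The groups overlapped, with stiff replicate 1 the highest and soft replicate 3 the lowest of the 6 libraries. Means were 85.2 ± 9.26 FPKM in stiff gels and 77.8 ± 13.4 FPKM in soft gels (SD, n = 3 each). The log2 fold change was 0.14 ± 0.13 (SE; limma, adjusted p = 0.591), and its 95% interval of -0.14 to 0.42 runs from 0.905 to 1.34 times soft gels on the same scale. Neither Sox9 nor Sox10 was under 0.05 before adjustment, which 21.7% of all genes tested were. Without soft replicate 1 the log2 fold change of Sox10 was 0.25 ± 0.11 (SE; adjusted p = 0.193), and that of Sox9 was 0.17 ± 0.09 (SE; adjusted p = 0.272).

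**Figure D1:**
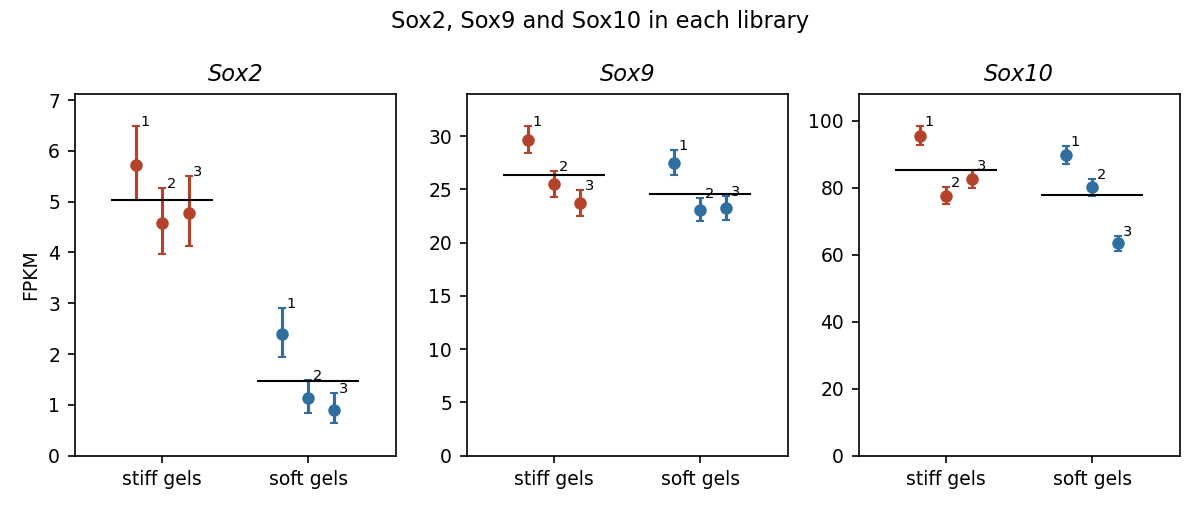
FPKM of Sox2, Sox9 and Sox10 (1 panel each, linear axis from 0) in the 3 stiff and 3 soft libraries; points carry the replicate number, bars are exact 95% Poisson intervals for counting error, and lines are group means. Sox2 is at 4.58 to 5.73 FPKM in stiff and 0.906 to 2.39 FPKM in soft gels, while the groups of Sox9 and of Sox10 overlap.

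The order of levels was the same in each of the 6 libraries, with Sox10 highest, Sox9 next and Sox2 lowest. Sox2 stood at 19.4%, 18% and 20.2% of the Sox9 level in stiff replicates 1 to 3, against 8.68%, 4.91% and 3.90% in soft replicates 1 to 3. Relative to Sox10 it stood at 6%, 5.90% and 5.79% in the stiff libraries, against 2.66%, 1.41% and 1.43% in the soft libraries. The stiff libraries were close to each other and above all soft libraries in both ratios. Sox10 was 3.23, 3.05 and 3.48 times Sox9 in stiff replicates 1 to 3, against 3.27, 3.47 and 2.73 times in soft replicates 1 to 3, and these groups overlapped.

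Whether the 3 genes differed in their response was tested within each library on the difference of log2(FPKM + 1), over 3 pairs of genes. The added 1 FPKM brings these values closer to 0 than the plain ratios above, most of all for Sox2 in soft gels. Sox2 minus Sox9 was -2.18 ± 0.08 in stiff gels and -3.41 ± 0.31 in soft gels (SD, n = 3 each; two-sided exact permutation test p = 0.1, adjusted over the 3 pairs 0.15). Sox2 minus Sox10 on that scale was -3.84 ± 0.02 in stiff gels and -5.02 ± 0.26 in soft gels, higher in stiff gels by 1.19 (exact permutation p = 0.1, adjusted 0.15). With 0.1 FPKM added in place of 1, the differences of stiff minus soft were 1.72 for Sox2 to Sox9, against 1.24, and 1.67 for Sox2 to Sox10, against 1.19. The smallest p that 3 against 3 libraries allow is 0.1, so this test could not pass 0.05. Sox10 minus Sox9 differed by 0.05 between the gels (exact permutation p = 0.8).

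Among the SOX genes tested, Sox2 had the largest fold change. Of the 20 mouse SOX genes looked for, 15 were in the table and 10 passed the filter on low values, a mean of at least 1 FPKM in either group. Each of the 10 averaged at least 1 FPKM in both groups. Of the 10 tested, 3 were called higher and 0 lower, against 3.13% and 2.68% of all genes tested. The median log2 fold change of the 10 was 0.10, against 0.027 over all genes tested.

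The other genes called higher were Sox21 and Sox13. Sox21, a relative of Sox2 in group B2 that is known in the prosensory epithelium, had 10.8, 10.4 and 10.2 FPKM in stiff replicates 1 to 3, against 9.10, 6.72 and 6.53 FPKM in soft replicates 1 to 3. Its groups did not overlap, as in 15.5% of all genes tested with stiff higher, and its log2 fold change was 0.45 ± 0.11 (SE; limma, adjusted p = 0.047). Sox21 was called in 1 of the 6 fits that leave out a library, the one without soft replicate 1, and was not called without the filter on low values or with median-ratio scaling. Sox13, of group D, had 36.6, 30.8 and 33.5 FPKM in stiff replicates 1 to 3, against 24.3, 21.3 and 17.5 FPKM in soft replicates 1 to 3. Its log2 fold change was 0.66 ± 0.11 (SE; limma, adjusted p = 0.0152), and it was called in 3 of the 6 fits that leave out a library, not without stiff replicate 1, stiff replicate 3 or soft replicate 2.

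The remaining SOX genes were not called. The group C genes Sox4, Sox11 and Sox12, factors of differentiating progenitors, averaged 50.8, 20.7 and 28.4 FPKM in stiff gels and 47.0, 19.4 and 28.9 FPKM in soft gels. Sox8, the third member of group E, averaged 2.06 ± 0.388 FPKM in stiff gels and 2.57 ± 0.426 FPKM in soft gels (SD, n = 3 each). Its log2 fold change was -0.22 ± 0.12 (SE; limma, adjusted p = 0.342), so 0 of the 3 group E genes were called. Sox14 averaged 1.11 FPKM in stiff gels and 1.25 FPKM in soft gels. Sox5 and Sox6, which work with Sox9 at cartilage genes, were under the filter, at 0.965 and 0.712 FPKM in stiff gels and 0.865 and 0.567 FPKM in soft gels.

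Sox7, Sox15 and Sox30 were also under the filter. Sox7, a group F gene of endothelial cells, had 5, 13 and 9 reads in stiff replicates 1 to 3, against 14, 62 and 36 reads in soft replicates 1 to 3. It is lower in stiff gels in the authors' deposited table, with a log2 fold change of -2.02 and q = 0.0061. Sox7 was not called in a limma fit without the filter. Sry, Sox1, Sox3, Sox17 and Sox18 were not analysed here. Sox15 and Sox30 averaged 0.378 and 0.0949 FPKM in stiff gels and 0.197 and 0.0495 FPKM in soft gels. The share of each of the 3 genes in the summed FPKM of the 15 SOX genes was then taken. Sox10 gave 30.7% to 33.9% of the summed SOX FPKM in stiff libraries and 30.6% to 35% in soft libraries. Sox9 gave 9% to 10.5% in stiff libraries and 10.1% to 11.2% in soft libraries. Sox2 gave 1.81% to 2.03% in stiff libraries and 0.437% to 0.898% in soft libraries.

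**Figure D2:**
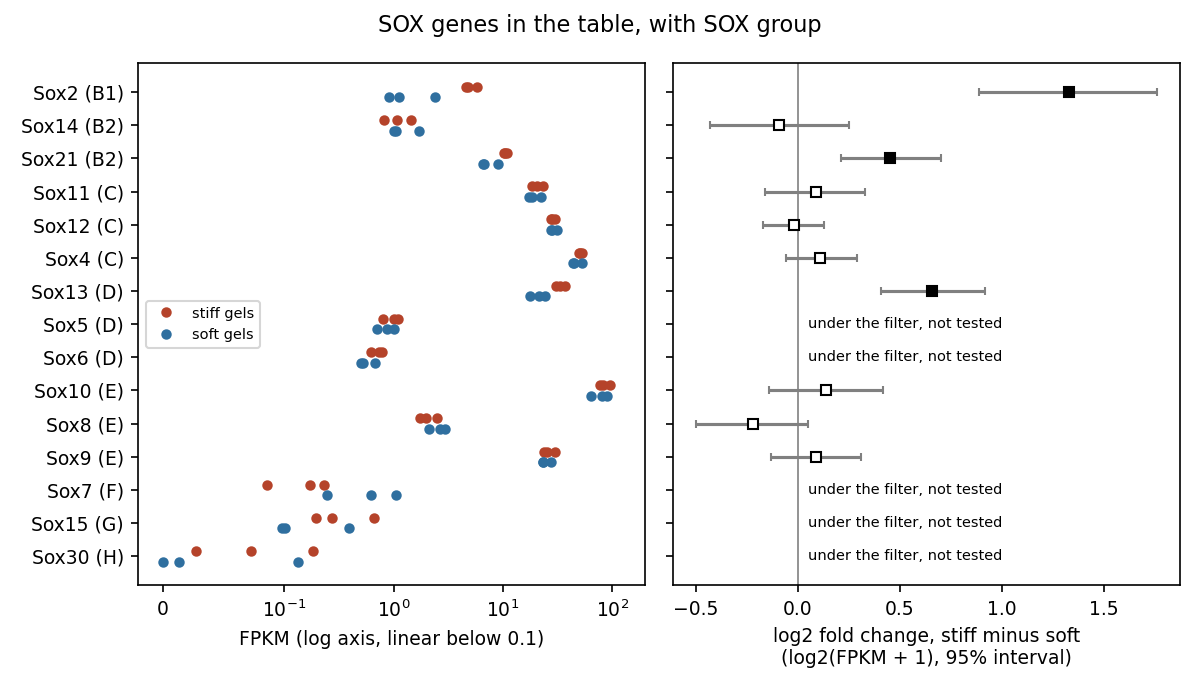
The 15 SOX genes of the table, with the SOX group in brackets. Left, FPKM of each stiff and soft library (log axis, linear below 0.1); right, log2 fold change of stiff minus soft with its 95% interval (limma), filled where called. Sox2, Sox21 and Sox13 are filled, at 1.33, 0.45 and 0.66.

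Among 849 tested genes that the deposited table assigns to a transcription factor family, Sox2 ranked low by level and high by fold change on the log2(FPKM + 1) scale. It ranked 631 by mean FPKM and 3 by log2 fold change, behind Klf2 (2.32), a factor known for its induction by fluid flow in endothelium, and Heyl (1.48), an effector of Notch. Sox10 ranked 19 by level and Sox9 ranked 116, and by fold change they ranked 146 and 233. The order by fold change holds for this scale: by the plain ratio of means, Sox2 was above Heyl, which averaged 16.5 FPKM in stiff gels and 5.56 FPKM in soft gels, and below Mafa, which averaged 1.36 FPKM in stiff gels and 0.336 FPKM in soft gels. Of these 849 genes, 3.53% were called higher and 3.65% lower.

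**Figure D3:**
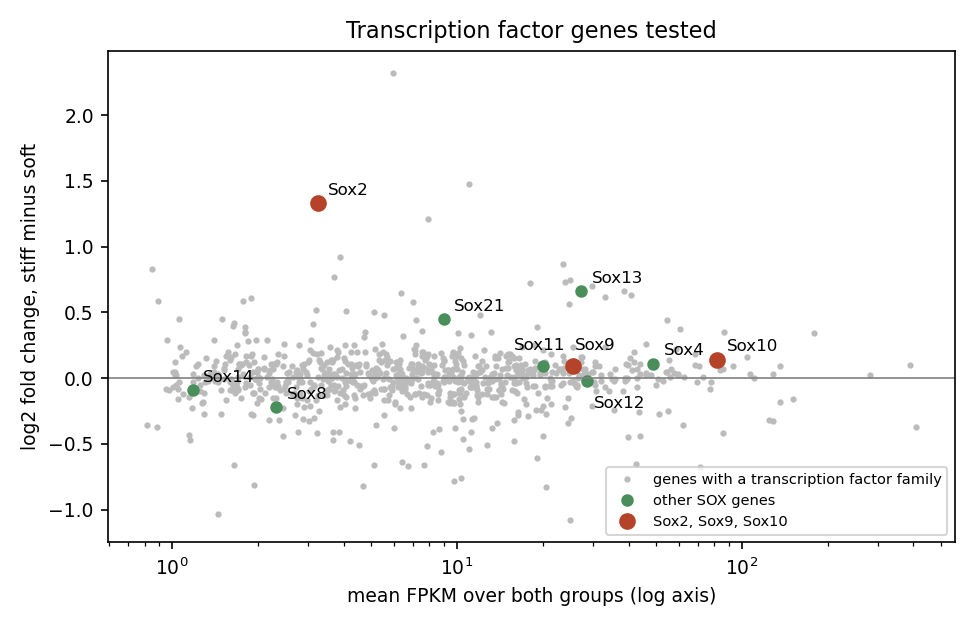
Log2 fold change of stiff minus soft (log2(FPKM + 1)) against mean FPKM over both groups (log axis) for 849 transcription factor genes, with the tested SOX genes named. Sox2 is at 1.33, near the top; Sox9 and Sox10 are at 0.09 and 0.14, within the bulk of the genes.

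Genes that work around Sox2 in the prosensory part of the cochlea moved in both directions. In a list of 26, 20 were tested, of which 4 rose, 2 fell and 14 were not called (median log2 fold change 0.14), where 3.13% of all genes tested were higher and 2.68% lower. The list was chosen with earlier results of these data known. Jag1, the Notch ligand of prosensory cells that is known to maintain Sox2, had 28.6, 25.2 and 27.5 FPKM in stiff replicates 1 to 3, against 18.9, 14.6 and 12.4 FPKM in soft replicates 1 to 3 (log2 fold change 0.81 ± 0.13 SE; limma, adjusted p = 0.0129). Isl1, a transcription factor of prosensory cells and ganglion neurons, averaged 30.7 ± 1.56 FPKM in stiff gels and 16.6 ± 3.48 FPKM in soft gels (SD, n = 3 each; limma, adjusted p = 0.0104). Lfng, which modifies Notch, and Hey1, a Notch effector, also rose, by 1.13 and 0.75 on the log2 scale. In each of these 4 genes soft replicate 1 was the highest soft library, as it was for Sox2.

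The members that fell were Hes1 and Hmga2. Hes1, a transcriptional repressor that Notch and other signals induce, had 32.3, 37.9 and 28.3 FPKM in stiff replicates 1 to 3, against 44.1, 56.0 and 55.7 FPKM in soft replicates 1 to 3 (limma, adjusted p = 0.0202). Hmga2, a chromatin protein gene of progenitors, averaged 3.15 FPKM in stiff gels and 4.53 FPKM in soft gels. Eya1, which acts with Sox2 in the otic epithelium, was not called, at 49.0 FPKM in stiff gels and 42.2 FPKM in soft gels. The prosensory list had 0 calls without stiff replicate 1 and without soft replicate 2, and 8 rises and 4 falls without soft replicate 1. Over all genes tested, 66 were called higher and 47 lower without stiff replicate 1. Those counts were 50 and 15 without soft replicate 2, and 860 and 767 without soft replicate 1. The summed level of the prosensory list was 1282 to 1349 FPKM in stiff libraries and 1287 to 1387 FPKM in soft libraries, which overlap. Much of that sum lay in Id1, Id2 and Id3, which were not called. They averaged 127, 404 and 357 FPKM in stiff gels and 145, 376 and 462 FPKM in soft gels. The sum therefore says little about the other listed genes.

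Among markers of supporting cells, the cochlear cells that keep Sox2, Sox9 and Sox10, there were calls in 1 direction. Of 21 tested, 9 (42.9%) rose and 0 fell, with a median log2 fold change of 0.45, against 3.13% called higher and a median of 0.027 over all genes tested. The list overlaps the prosensory list, and Jag1 and Lfng are counted among the rises of both. Gjb6, one of the 9, was tested only because its mean reached 1 FPKM in stiff gels, and with the filter on the mean over all libraries 8 of 20 rose. Otoa, the gene of otoancorin, which helps attach the tectorial membrane, had the lowest adjusted p of the list. It had 21.1, 17.7 and 17.1 FPKM in stiff replicates 1 to 3, against 8.36, 8.45 and 7.54 FPKM in soft replicates 1 to 3 (log2 fold change 1.1 ± 0.09 SE; limma, adjusted p = 0.00171). Otoa stayed called whichever library was left out. The summed FPKM of the 23 listed markers was 2537 to 2661 in stiff libraries and 1902 to 2453 in soft libraries, with soft replicate 1 again the highest of the soft libraries. Much of that gap lay in abundant genes that were not called. S100a1, Epyc, Epcam and Gjb2 averaged 614, 637, 268 and 141 FPKM in stiff gels, against 472, 575, 229 and 108 FPKM in soft gels. Krt18, Cdh1, Cd44 and Bmp4 averaged lower in stiff gels and were not called. In the authors' deposited table Cdh1 is lower in stiff gels, with q = 0.0496. S100a1 and Gjb2 are higher there, with q = 0.00344 and 0.0127. In bulk RNA, more cells of a type and more RNA per cell cannot be told apart, and this holds for Sox2 as well. Whether the share of supporting cells has a part in the rise of Sox2 was not tested. The count of called markers was between 2 and 13 when single libraries were left out, lowest without stiff replicate 1 and highest without soft replicate 1. Over all genes tested, 66 were called higher without stiff replicate 1 and 860 without soft replicate 1.

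Cartilage genes, the best known targets of Sox9, did not move one way. Of 10 tested, 1 rose, 2 fell and 7 were not called (median log2 fold change 0.14), beside the 3.13% higher and 2.68% lower of all genes tested. Col27a1, a fibrillar collagen gene, averaged 9.83 ± 1.15 FPKM in stiff gels and 6.40 ± 0.617 FPKM in soft gels (SD, n = 3 each; limma, adjusted p = 0.0174). Cnmd, the gene of the cartilage protein chondromodulin, averaged 49.0 ± 1.71 FPKM in stiff gels and 81.3 ± 18.1 FPKM in soft gels (limma, adjusted p = 0.0209). Col11a1 also fell, to 65.3 FPKM in stiff gels, against 86.7 FPKM in soft gels. Col2a1 and Col9a2, collagens of both cartilage and the tectorial membrane, averaged 186 and 481 FPKM in stiff gels and 137 and 354 FPKM in soft gels. Neither was called (limma, adjusted p = 0.0987 and 0.0509). Both are higher in stiff gels in the authors' deposited table, with q = 0.0115 and 0.000953. Matn4 was not called either (limma, adjusted p = 0.106), and it is lower there, with q = 0.0295. Acan, Matn1, Hapln1 and Comp were not analysed here. The list had 0 calls without stiff replicate 1, stiff replicate 3 or soft replicate 2, and 4 rises and 3 falls without soft replicate 1. Genes called higher over all genes tested were 66, 90, 50 and 860 in these fits, in that order. Genes called lower were 47, 54, 15 and 767.

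Sox10 was abundant while several marker genes of its neural crest lineages were near 0. Cdh19, a cadherin gene of Schwann cell precursors, averaged 0.00704 FPKM in stiff gels and 0.00586 FPKM in soft gels, and Gfap, a glial filament gene, averaged 0.0794 FPKM in stiff gels and 0.0888 FPKM in soft gels. The melanocyte genes Mlana and Mitf were at 0.205 and 0.183 FPKM in stiff gels and 0.271 and 0.263 FPKM in soft gels. Kit and Kcnj10, of the same list as these, were higher, at 35.3 and 2.06 FPKM in stiff gels and 33.6 and 1.05 FPKM in soft gels. Other genes of the glia and Schwann cell list were abundant. Ngfr, a neurotrophin receptor gene, averaged 50.8 FPKM in stiff gels and 42.7 FPKM in soft gels, and Egr2, a transcription factor gene of myelination, 16.2 FPKM in stiff gels and 14.1 FPKM in soft gels. Supporting cell markers spanned a wide range as well, with Epyc at 637 FPKM in stiff gels and 575 FPKM in soft gels, and Fgfr3 at 0.443 FPKM in stiff gels and 0.254 FPKM in soft gels. Foxd3, Dct and Tyr were not analysed here.

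The tested genes of that list had calls in 1 direction. Of 13 tested in the glia and Schwann cell list, 4 rose, 0 fell and 9 were not called (median log2 fold change 0.24), against 3.13% higher and 2.68% lower over all genes tested. Among those that rose, Pmp22, a myelin protein gene, averaged 9.56 FPKM in stiff gels and 6.92 FPKM in soft gels (log2 fold change 0.42 ± 0.08 SE; limma, adjusted p = 0.02). S100b, a calcium-binding protein gene, averaged 6.39 FPKM in stiff gels and 3.95 FPKM in soft gels (limma, adjusted p = 0.033). Cnp, an enzyme gene of myelinating cells, averaged 19.4 FPKM in stiff gels and 16.1 FPKM in soft gels (limma, adjusted p = 0.0493). In the authors' deposited table Cnp has q = 0.113. Erbb3, a neuregulin receptor and known Sox10 target, had 31.1, 25.5 and 28.8 FPKM in stiff replicates 1 to 3, against 21.3, 24.2 and 20.2 FPKM in soft replicates 1 to 3. The groups of Erbb3 did not overlap, as in 15.5% of all genes tested with stiff higher, but it was not called (limma, adjusted p = 0.0517). In the authors' deposited table Erbb3 has q = 0.00772. Summed over the 21 listed genes, the level was 213 to 237 FPKM in stiff libraries and 188 to 202 FPKM in soft libraries. The 4 calls fell to 0 without soft replicate 2 and were 6 without soft replicate 1, where 1 gene was called lower. Over all genes tested, 50 were called higher and 15 lower without soft replicate 2, and 860 and 767 without soft replicate 1. Of the melanocyte and intermediate cell list, 2 genes were tested and 0 called. Kcnj10, a potassium channel gene of intermediate cells and glia, averaged 2.06 ± 0.594 FPKM in stiff gels and 1.05 ± 0.236 FPKM in soft gels (SD, n = 3 each; limma, adjusted p = 0.0574). Its groups did not overlap, as in 15.5% of all genes tested with stiff higher. In the authors' deposited table it has q = 0.00513. The list had 1 call with a replicate block, with limma-voom on rebuilt reads and without the filter on low values. It also had 1 call without stiff replicate 2 and without soft replicate 1. Ednrb, a listed gene under the filter, averaged 0.998 FPKM in stiff gels and 0.416 FPKM in soft gels. The authors' log2 fold change of Ednrb was 1.24, with q = 0.000513. Mitf and Mlana, also under the filter, averaged lower in stiff gels, as given above. Kit, a receptor gene, was at 35.3 ± 2.72 FPKM in stiff gels and 33.6 ± 2.45 FPKM in soft gels (SD, n = 3 each; limma, adjusted p = 0.684).

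Markers of other cell types were tallied beside the 3 genes, and their counts stand against 3.13% higher and 2.68% lower over all genes tested. Of 6 tested hair cell genes 2 rose, Ush1c and Calb2, and 0 fell, while Gfi1 and Otof, which mark differentiating hair cells, averaged 0.109 and 0.0139 FPKM in stiff gels and 0.0246 FPKM each in soft gels. Summed over the 13 listed hair cell genes, the level was 78.8 to 86.6 FPKM in stiff libraries and 57.1 to 67.3 FPKM in soft libraries. Much of that gap lay in Ush1c, at 37.9 FPKM in stiff gels and 24.9 FPKM in soft gels, and Calb2, at 10.5 FPKM in stiff gels and 5.03 FPKM in soft gels, and the median log2 fold change of the list was 0.10. Atoh1 and Pou4f3 were not analysed here. Of 5 tested neuron genes 0 rose and 2 fell, among them the growth cone gene Gap43, at 1.58 ± 0.473 FPKM in stiff gels and 5.90 ± 1.75 FPKM in soft gels (SD, n = 3 each; limma, adjusted p = 0.00965). The summed neuron level was 11.5 to 13.2 FPKM in stiff libraries and 16.3 to 24.4 FPKM in soft libraries. That gap lay in Gap43 and Ntrk2, a neurotrophin receptor gene at 4.29 FPKM in stiff gels and 8.45 FPKM in soft gels, while the other 3 tested genes were not called and the list's median log2 fold change was -0.00. Of those 3, Map2 and Nefm averaged 3.28 and 1.5 FPKM in stiff gels and 2.57 and 1.06 FPKM in soft gels. Their groups did not overlap, as in 15.5% of all genes tested with stiff higher. In the authors' deposited table Map2 is higher in stiff gels, with q = 0.0268. Tubb3 averaged 1.31 FPKM in both groups. Whether these cell types have a part in the Sox2 difference was not tested. Of 13 tested periotic mesenchyme and fibroblast genes 0 were called, and their highest gene, Otor, averaged 775 ± 125 FPKM in stiff gels and 832 ± 115 FPKM in soft gels (SD, n = 3 each; limma, adjusted p = 0.719). The summed level of that list was 2060 to 2297 FPKM in stiff libraries and 2014 to 2199 FPKM in soft libraries. Of 4 tested endothelial genes Kdr fell, to 10.7 FPKM in stiff gels, against 24.7 FPKM in soft gels. Cd68 was the 1 tested gene of the blood and immune list and was not called. Among partners of Sox2 in pluripotent cells Klf4 was the 1 gene tested and rose, to 3.70 FPKM in stiff gels, against 2.54 FPKM in soft gels, and Nanog averaged 0.0298 FPKM in stiff gels and 0.168 FPKM in soft gels. The calls of Isl1 and Kdr were lost in the same fits as that of Sox2, that of Gap43 without soft replicate 2, and that of Ush1c without stiff replicate 1 or 3. Hes1, Col27a1 and Cnmd were called in 2 of the 6 fits that leave out a library, and Klf4 in 1, the fit without soft replicate 1.

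**Figure D4:**
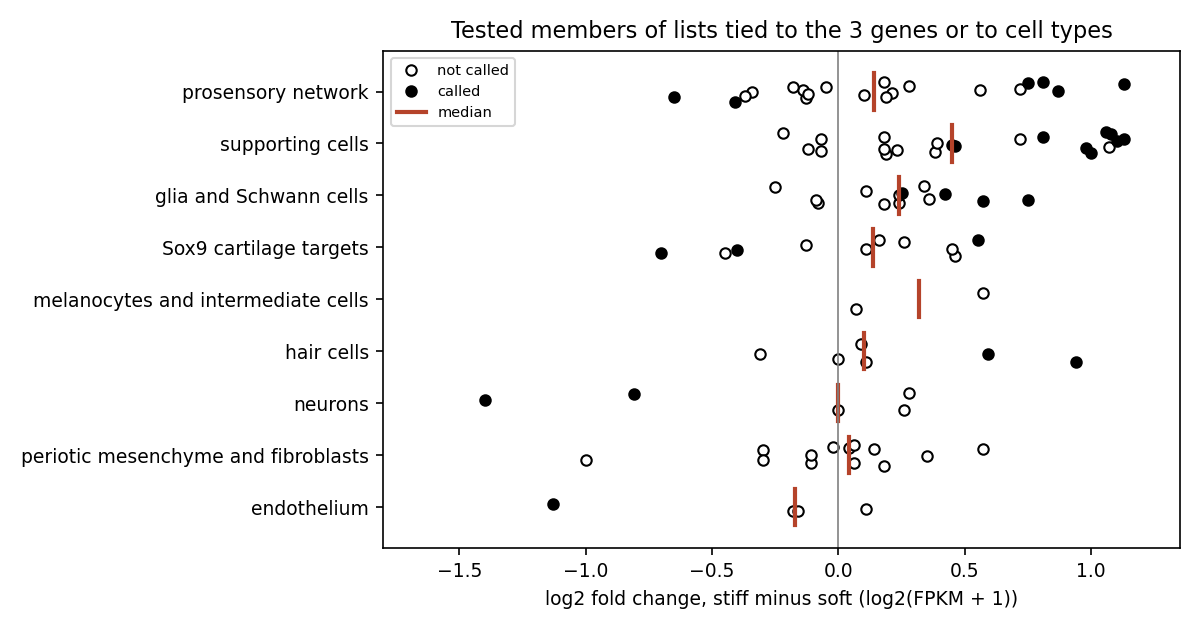
Log2 fold change of stiff minus soft for the tested genes of 9 lists (1 point a gene, filled where called by limma, a red line at the list's median). Supporting cell markers have 9 filled points, all above 0; the Sox9 cartilage targets have 1 filled point above and 2 below 0.

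The genes whose levels over the 6 libraries were most like each member were found by Pearson correlation of log2(FPKM + 1) among 10438 genes, as a description. All values come from the same 6 libraries, so any genes that differ between the gels correlate. Closest to Sox2 were Heyl (r = 0.999), Sall2, a zinc finger factor (0.998), Efhd1, a calcium-binding protein gene of mitochondria (0.998), Shisa2, which encodes an inhibitor of Wnt and FGF receptors (0.998), and Wscd2 (0.997). Each of the 5 was called higher in stiff gels, and 312 genes had an r above 0.95 with Sox2. Closest to Sox9 were Parg (r = 0.986), Rgma (0.984), Rbm15b (0.982), Agpat1 (0.969) and Zbtb14 (0.967), and to Sox10 Pip5k1c (0.993), the planar cell polarity gene Vangl2 (0.984), Gpc1 (0.983), Gstm4 (0.983) and Rims2 (0.978). Of these 10 genes 0 were called, and 9 and 28 genes had an r above 0.95 with Sox9 and Sox10.

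The nearest protein-coding neighbours on the chromosome were set beside the 3 genes. Those of Sox2, Dnajc19 and Atp11b, averaged 6.65 and 15.9 FPKM in stiff gels and 5.55 and 15 FPKM in soft gels and were not called (limma, adjusted p = 0.201 and 0.633). Polr2f and Pick1, next to Sox10, had log2 fold changes of 0.21 and 0.23 and were not called. Next to Sox9, Slc39a11 was not called, and the potassium channel gene Kcnj2 fell, to 0.645 ± 0.233 FPKM in stiff gels, against 1.33 ± 0.174 FPKM in soft gels (SD, n = 3 each; limma, adjusted p = 0.0478). Kcnj2 was tested only because its mean reached 1 FPKM in soft gels. The housekeeping gene Actb averaged 1065 ± 57.0 FPKM in stiff gels and 1149 ± 51.8 FPKM in soft gels and was not called. Gapdh, also an enzyme of glycolysis, fell, to 64.6 FPKM in stiff gels, against 92.0 FPKM in soft gels.

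**Figure D5:**
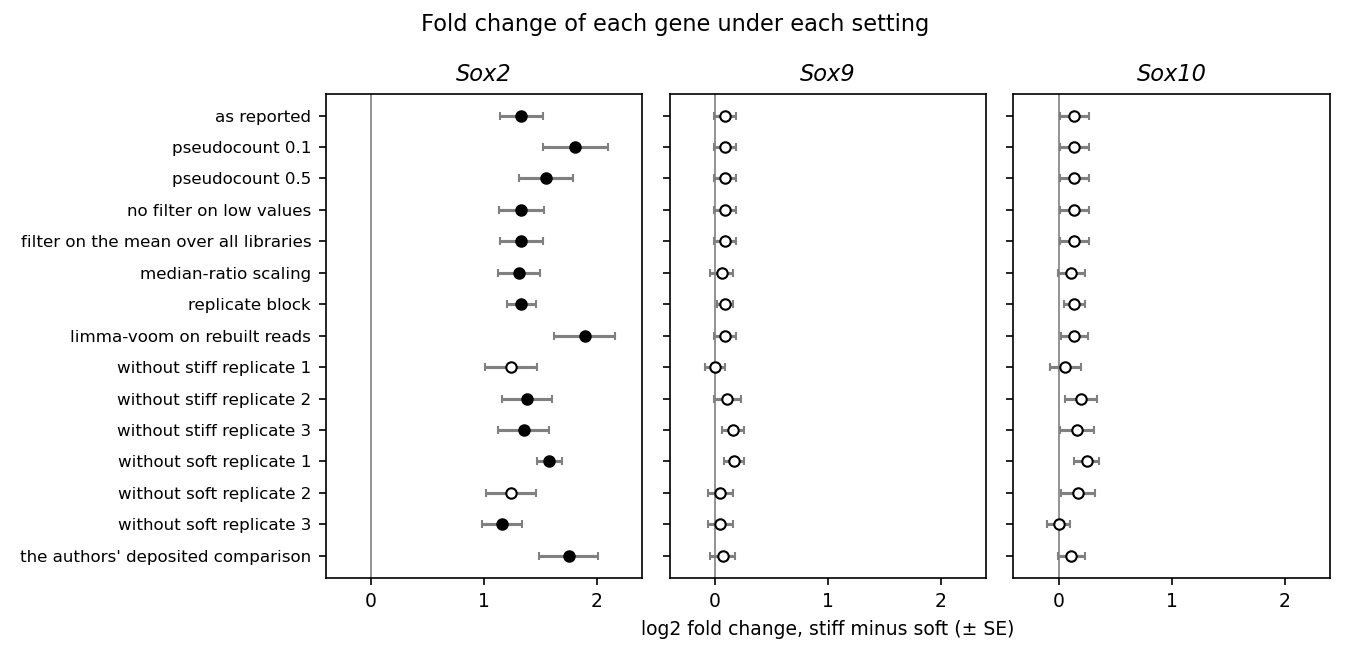
Log2 fold change of stiff minus soft (± SE) of Sox2, Sox9 and Sox10 under each setting of the processing, filled where the adjusted p (or the authors' q) is under 0.05. Sox2 lies between 1.16 and 1.89 and is open without stiff replicate 1 and without soft replicate 2; Sox9 and Sox10 are open throughout.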

How the data were processed

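RNA-seq was measured in 3 stiff and 3 soft gel libraries of mouse cochlear organoids, prepared per the labels' protocols with TruSeq RNA v2, a kit without strand information. TopHat2 2.1.1, DESeq2 and the build mm10 are named per the submitters' processing notes; the sources used here name no read counter or annotation. The authors' deposited expression columns were taken as FPKM from their values. The deposited base mean is a signal (mean normalized count), and the log2 fold change with its SE, the fold ratio, the score (fold change over SE) and the p-value and q-value are the authors' own comparison, per the file headers.

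Reads were rebuilt from FPKM and base mean; 100.0% of values came out whole within 0.05 reads. Genes with a mean of at least 1 FPKM in either group were fitted as log2(FPKM + 1) with limma 3.58.1 (R 4.3.3, intensity trend, Benjamini-Hochberg over all genes tested, called under 0.05). In data simulated with set answers, the fit recovered 96% of 1.5-fold and 100% of 2-fold changes, with 13 false calls among 209 calls. The median error of the 2-fold changes was -0.103 on the log2 scale. No simulated library was set apart as soft replicate 1 is. The share of changes recovered in the real libraries was not tested. There, Kcnj10 had a stiff over soft ratio of mean FPKM of 1.97 and was not called (limma, adjusted p = 0.0574). Col27a1 had a ratio of 1.54 and was called (limma, adjusted p = 0.0174). A gene that was not called may still differ between the gels. The design had allowed a count test for raw counts; the deposited unit was FPKM. Members, lists and tests were chosen with earlier results of these data known. Named were the 3 genes, all SOX genes, per list and direction the called gene of lowest adjusted p (with none called, the most abundant), the 5 genes closest by r, the neighbours, and Actb and Gapdh. Genes named beyond that rule (Jag1, Lfng, Hey1, Hmga2, Eya1, Id1, Id2, Id3, Col11a1, Col2a1, Col9a2, Matn4, Cdh19, Gfap, Mlana, Mitf, Ednrb, Epyc, Fgfr3, S100a1, Epcam, Gjb2, Krt18, Cdh1, Cd44, Bmp4, Ngfr, Egr2, Kcnj10, Ntrk2, Map2, Nefm, Tubb3, Gjb6, Mafa, Pmp22, S100b, Cnp, Erbb3, Calb2, Gfi1, Otof, Nanog, Klf2) were picked after their values were seen. Some genes that the rule or the lists name are not reported here. Alternatives were another pseudocount, filter, scaling, a replicate block, limma-voom and leaving out each library.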

Additional observations from a re-analysis of the deposited data

How the results depend on the processing

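Under the other settings Sox2 kept its direction and call, at log2 fold changes of 1.31 to 1.89, and Sox9 and Sox10 stayed without a call. When single libraries were left out, Sox2 ranged from 1.16 to 1.58, Sox9 from 0.00 to 0.17 and Sox10 from 0.00 to 0.25, with the losses of the Sox2 call given above; the cause was not tested. In those fits the stiff minus soft difference of the log2 ratio of Sox2 to Sox9 ranged from 1.11 to 1.41, that of Sox2 to Sox10 from 1.07 to 1.33, and that of Sox10 to Sox9 from -0.05, without soft replicate 3, to 0.12, so its direction is not fixed. With a pseudocount of 0.1 these differences were 1.72, 1.67 and 0.05. Genes called higher ranged from 50, without soft replicate 2, to 860, without soft replicate 1, and genes called lower from 15 to 767 under the same 2 settings. The authors' deposited comparison lists 482 of the tested genes higher and 632 lower, against 369 and 316 here.

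Replicate numbers gave no clear pairing of the libraries: deviations of same-numbered libraries from their group means correlated at 0.01, 0.22 and -0.21. Those of differently numbered libraries correlated from -0.38 to 0.35. Whether same-numbered libraries share a batch was not tested. With a replicate block 381 genes were called higher and 329 lower, and Sox2 had a log2 fold change of 1.33 (limma, adjusted p = 0.00314). The block lowered the SE of Sox2 from 0.19 to 0.13, of Sox9 from 0.10 to 0.07 and of Sox10 from 0.13 to 0.09. Limma-voom on rebuilt reads, chosen after seeing the data, took the place of the planned edgeR and DESeq2 fits, which were not run. Limma-voom gave Sox2 a log2 fold change of 1.89 (adjusted p = 0.0049). Sox2 rested on fewer reads than Sox9 and Sox10, with as few as 40 in a library, so counting error weighs more on it.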
